A study of Papaver somniferum with 12 samples.

Results

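Leaves of opium poppy (Papaver somniferum) at bolting were compared with leaves at jointing. The comparison holds 6 of the 12 RNA sequencing libraries of the series, 3 bolting and 3 jointing, chosen by the growth phase in their labels. The unigenes tested were the 31242 of 61856 whose mean over the 12 libraries reached 1 RPKM. RPKM scales the reads of a sequence to its length and to the mapped total of its library, and a unigene is a non-redundant transcript sequence that the authors built from long reads. All plants were grown in the study's experimental plot from its original cultivar, B1, which the study describes as wild, no treatment is given in the labels, and every library is labelled as leaf. At bolting a small bud is first seen at the tip of the stem, and at jointing the stem has elongated but carries no visible bud. The other 6 libraries are seedling and florescence leaves of the same cultivar, and the phases were collected on different dates of a single season, so phase, plant age and season cannot be told apart. Where the study lists RNA integrity, it was higher for every jointing library than for every bolting library, so integrity and phase cannot be told apart either.

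Opium poppy makes benzylisoquinoline alkaloids, among them morphine, codeine, noscapine and papaverine, and stores them in the latex of specialised cells that run beside the phloem. Jointing and bolting span the change from vegetative stem growth to flowering, when plants redirect carbon and nitrogen from leaves to the growing stem and bud. Leaf transcripts for photosynthesis are typically among the most abundant of a plant, so a few sequences can take a large part of the reads of a leaf library.

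The identifiers of the table carry no gene name. None of them occurs in the RefSeq gene table of assembly ASM357369v1, so alkaloid genes, leaf markers and pathways were not analysed here and the tissue could not be checked against marker genes. Unigenes are described by level, by library and by growth phase.

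The bolting libraries had fewer unigenes above the detection limit of 0.1 RPKM, and a larger part of their signal lay in a few sequences. The number of unigenes above 0.1 RPKM was 44687, 45454 and 45828 in bolting replicates 1 to 3, against 46771, 46789 and 46765 in the jointing replicates. The 10 highest unigenes held 20.2%, 19.0% and 19.3% of the summed RPKM at bolting, against 16.3%, 15.7% and 11.3% at jointing. The highest value in each of these libraries belonged to a single unigene, PB.734.2622, which was chosen for mention after its values were seen. It had 87987, 84549 and 86829 RPKM at bolting, against 71616, 66716 and 43353 RPKM at jointing, and it was not called in the test described below (limma, difference 0.55 ± 0.20 (SE) on the log2(RPKM + 1) scale, adjusted p = 0.063). Jointing replicate 3 was the lowest of the 6 libraries in both the share of the 10 highest unigenes and in PB.734.2622.

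Neither count overlapped between the phases. The difference of means was -1452 unigenes above 0.1 RPKM (45323 ± 582 at bolting and 46775 ± 12.5 at jointing, SD, n = 3 each) and 5.06 percentage points in the share of the 10 highest unigenes (19.5% ± 0.642 and 14.4% ± 2.71). Each gave p = 0.1 in an exact two-sided permutation test, the smallest p that 3 against 3 libraries allow, and an adjusted p of 0.1 over 4 such tests. After scaling, the detected unigenes overlapped between the phases and the difference was -503 (exact permutation test, p = 0.2).

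The scaling divides each library by the median ratio of its unigenes to their geometric mean over the 12 libraries. Its factors were 0.847, 0.920 and 0.939 for the bolting libraries and 1.08, 1.11 and 1.25 for the jointing libraries, so the typical unigene stood lower at bolting in the values as deposited. The median unigene among those tested had 3.75, 4.09 and 4.20 RPKM in the bolting libraries, against 4.92, 5.07 and 5.81 RPKM in the jointing libraries. The depth of the mapped reads, as estimated from the lowest values above 0 in 370 unigenes, ran from 0.964 to 1.07 of the mean in these 6 libraries. Only values close to the lowest of each unigene entered, which narrows the spread that this estimate can show. The clean bases that the study lists, counted before mapping, spread more widely over these libraries.

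The 6 libraries did not form 2 tight groups. On scaled log2 values over the tested unigenes, the first principal component held 57.6% of their variance. Jointing replicate 3 lay at one end with a score of 80.4, and bolting replicate 1 at the other with -69.8. Between them, jointing replicates 1 and 2 had scores of 21.1 and 1.89, and bolting replicates 2 and 3 had -5.26 and -28.3. All jointing libraries were thus on the positive side and all bolting libraries on the negative side, with jointing replicate 2 and bolting replicate 2 near the middle. The second component, with 17.7% of the variance, set bolting replicate 2 at 42.2 apart from jointing replicate 2 at -41.7. Placed on the same axes, the seedling libraries had first scores of -32.4 to -28.1 and the florescence libraries of -49.5 to -19.3, on the side of bolting.

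**Figure D1:**
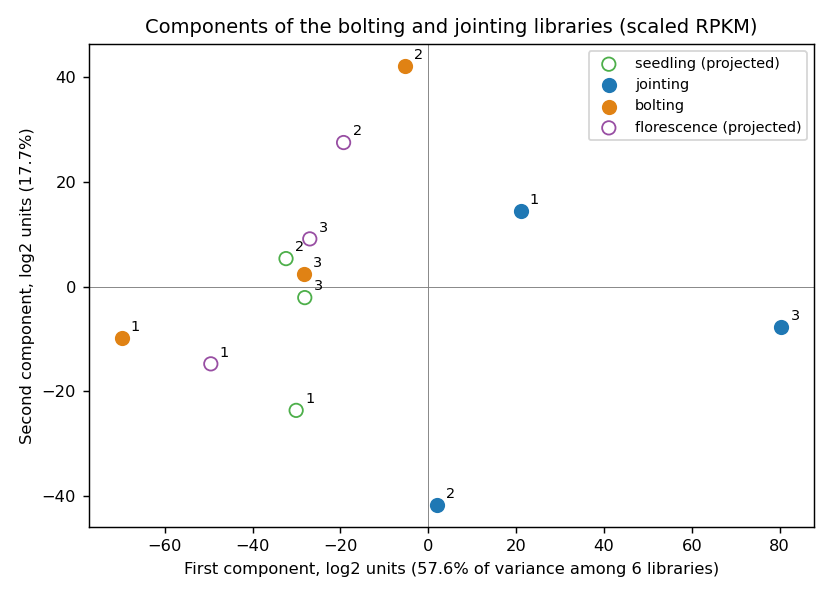
Scores of the libraries on the first and second principal components of the 3 bolting and 3 jointing libraries (scaled log2 values of 31242 unigenes), with seedling and florescence libraries projected and numbers giving the replicate. Jointing replicate 3 (80.4) and bolting replicate 1 (-69.8) lie at the ends of the first component, and the seedling and florescence libraries fall on the bolting side.

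The closest and the most distant pair both joined libraries of different phases. Across the 31242 unigenes, which are not independent replicates, the Pearson correlation of log2(RPKM + 1) as deposited ran from 0.961 to 0.978 over the 3 bolting pairs and from 0.947 to 0.972 over the 3 jointing pairs. It ran from 0.885 to 0.980 over the 9 pairs of a bolting with a jointing library. Bolting replicate 2 and jointing replicate 1 were the closest pair of all, at 0.980, and bolting replicate 1 and jointing replicate 3 were the most distant. When limma estimated a weight for each library from its spread around the phase mean, these end libraries had the lowest weights of the 12, at 0.454 for bolting replicate 1 and 0.262 for jointing replicate 3 on scaled values.

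Expression was compared with limma on log2(RPKM + 1) in a fit on all 12 libraries, and calls needed a log2 difference of 1 or more in either direction together with an adjusted p below 0.05. In the values as deposited 1023 unigenes were called, 3.27% of those tested. Of these, 85 were higher at bolting (0.272% of those tested) and 938 were lower (3.0%). The median difference over all tested unigenes was -0.26, so the tested unigenes as a whole stood lower at bolting. Quantile normalization, which gives every library the same distribution, had 152 higher and 431 lower calls.

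After scaling the median difference was 0.00 and 574 unigenes were called, 1.84% of those tested. Of these, 209 were higher at bolting (0.669%) and 365 were lower (1.17%). The split depended on which unigenes set the scale. With factors from unigenes of at least 10 RPKM it was 137 higher and 487 lower, and with factors from every unigene above 0 in all libraries, chosen after the data were seen, it was 264 higher and 344 lower.

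Both scalings called 436 unigenes with the same sign, 71 higher and 365 lower, which is 42.6% of the calls on deposited values and 76.0% of the calls on scaled values. No unigene was called in opposite directions. All 365 unigenes called lower after scaling were also called lower as deposited. The 587 calls found only in the deposited values were 573 lower and 14 higher, and the 138 found only after scaling were all higher. Scaling raised every bolting library and lowered every jointing library, so it could move a difference only upward. The overlap of the lists is therefore not that of independent tests, and the directions of the changed calls were largely set by the factors.

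Separation of the libraries was common among all tested unigenes. As deposited, the 3 bolting and 3 jointing libraries did not overlap for 46.6% of all tested unigenes, with bolting lower for 41.8% and higher for 4.79%. On scaled values they did not overlap for 31.9%, with bolting higher for 5262 unigenes and lower for 4695. All 209 unigenes called higher and 362 of the 365 called lower on scaled values were without overlap.

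The difference between the phases varied with the level of the unigene. The median difference on scaled values was -0.06 among 11317 unigenes with a mean of 1 to 3 RPKM, -0.02 among 10271 of 3 to 10 RPKM, 0.07 among 5670 of 10 to 30 RPKM, 0.20 among 2580 of 30 to 100 RPKM and 0.38 among 1404 of at least 100 RPKM. Bolting was thus higher, relative to the median unigene, among abundant sequences and slightly lower among rare ones, where the scale shrinks differences. The same order was present as deposited from 3 RPKM upward, where the medians were -0.30 at 3 to 10 RPKM and 0.04 at 100 RPKM or more. In the top class all 3 bolting libraries lay above the mean of the 6 libraries, with medians of 0.24, 0.20 and 0.12 for replicates 1 to 3. The jointing libraries lay below it, at -0.02, -0.11 and -0.40, so jointing replicate 3 stood farthest from the mean.

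Calls in both directions took a larger share of the abundant unigenes. The 1 added to RPKM before the logarithm shrinks differences at low levels, so the threshold is harder to reach there. How much of the contrast comes from this was not tested. On scaled values 9 unigenes at 1 to 3 RPKM were called higher at bolting and 114 lower, or 0.0795% and 1.01% of the class. At 100 RPKM or more 64 were called higher and 32 lower, or 4.56% and 2.28% of the class. The balance in this top class turned with the scaling, since as deposited 20 of its unigenes were called higher and 144 lower, together 11.7% of the class. The 100 unigenes with the highest mean had a difference above 0 for 98 of 100 on scaled values and for 92 of 100 as deposited, with medians of 0.83 and 0.49. Only 8 of them passed the test on scaled values (limma), all higher at bolting. As deposited 2 were called higher and 1 lower.

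**Figure D2:**
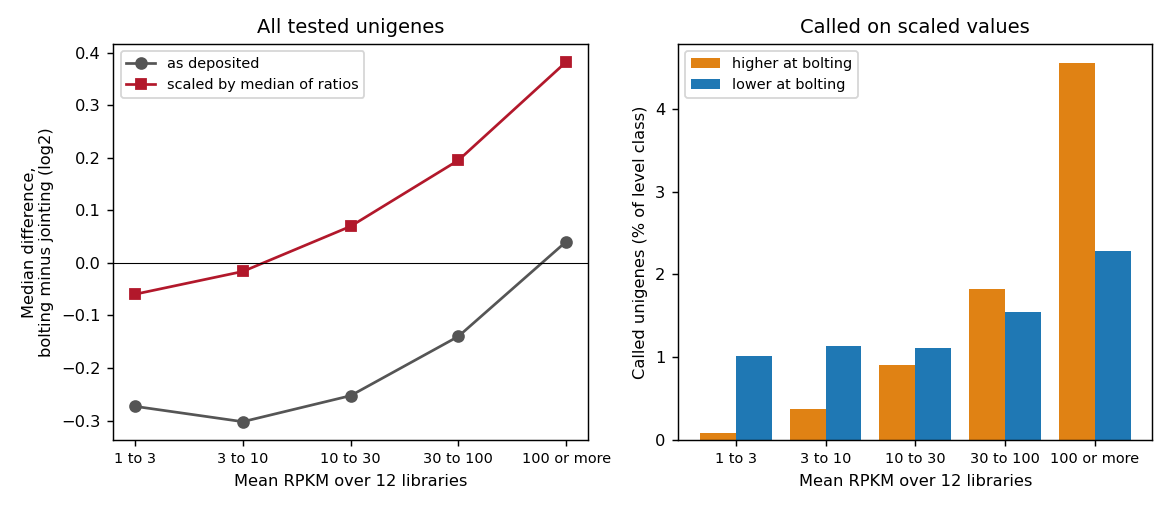
Left, the median difference of bolting minus jointing on the log2(RPKM + 1) scale for all tested unigenes in 5 classes of mean RPKM, as deposited and scaled. Right, the percentage of each class called higher or lower at bolting on scaled values. The scaled median is -0.06 in the lowest class and 0.38 in the highest, and calls higher and lower at bolting are 4.56% and 2.28% of the highest class.

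The called unigenes were led by the same end libraries. Over the 209 unigenes called higher at bolting on scaled values, the median scaled RPKM was 48.4, 33.0 and 31.8 in bolting replicates 1 to 3, against 18.1, 19.7 and 10.38 in the jointing replicates. Bolting replicate 1 was the highest of the 6 libraries for 185 of them and jointing replicate 3 the lowest for 194. Among all tested unigenes these libraries held these positions for 26.2% and 31.2%. These shares are not a like baseline, since the calls were picked from the same libraries and all 209 were without overlap. Without overlap the highest library must be a bolting one and the lowest a jointing one. Over the 209 unigenes both phases were split, with replicates 2 and 3 of bolting and replicates 1 and 2 of jointing closer together.

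Over the 365 unigenes called lower at bolting, the median scaled RPKM was 1.36, 3.42 and 2.44 in the bolting replicates, against 7.99, 8.37 and 17.4 in the jointing replicates. Bolting replicate 1 was the lowest of the 6 libraries for 304 of them and jointing replicate 3 the highest for 344. The corresponding shares of all tested unigenes were 27.3% and 30.3%. They are not a like baseline here either, since nearly all of the 365 were without overlap.

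Counts of calls rested on these libraries. Without bolting replicate 1 the number of calls fell to 179 as deposited and to 20 on scaled values (9 higher and 11 lower), against 1023 and 574 with all libraries. Without jointing replicate 3 it was 390 and 193. Without jointing replicate 1 it was 1497 and 951. Leaving out any other bolting or jointing library gave 1204 to 1476 calls as deposited and 488 to 807 on scaled values. In a fit on the 6 libraries alone no unigene was called in either scaling (limma, lowest adjusted p = 0.0913 and 0.0874), while 10775 and 6828 unigenes had an unadjusted p under 0.05. The median residual degrees of freedom, prior included, were 11.2 with all 12 libraries and 7.11 with the 6, as deposited.

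**Figure D3:**
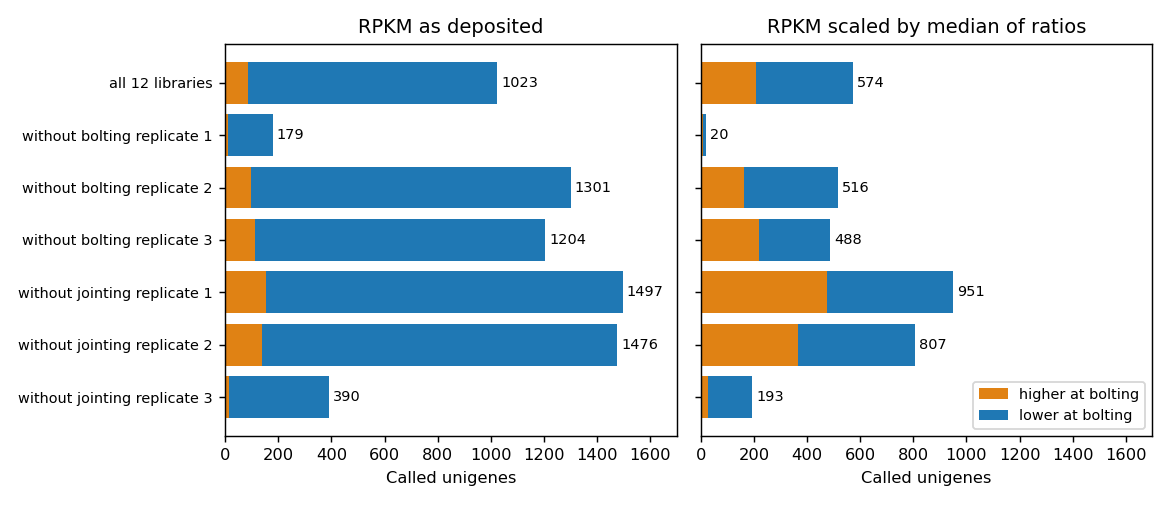
Number of unigenes called higher or lower at bolting in the fit on all 12 libraries and in 6 fits that each leave out a bolting or jointing library, as deposited (left) and scaled (right). Bars reach 1023 and 574 with all libraries, and 179 and 20 without bolting replicate 1.

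The differences of the called unigenes were smaller without the end libraries. With both bolting replicate 1 and jointing replicate 3 left out, an alternative chosen after the data were seen, the median difference on scaled values was 0.75, against 1.19 with all libraries, for the 209 higher unigenes and -0.97, against -1.47, for the 365 lower ones. A smaller difference was built in for most of these unigenes, because the libraries left out were the ones farthest from the other phase. The signs of the differences say nothing more either. Nearly all of these unigenes were without overlap between the phases, and leaving out a library cannot turn such a sign. In that fit 120 unigenes were called, 12 higher and 108 lower, and they held 12 of the 209 and 95 of the 365.

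A small group passed the test in each of the 6 fits that left out a bolting or jointing library. As deposited this group held 149 unigenes, 6 higher and 143 lower at bolting. On scaled values it held 17, with 8 higher and 9 lower. In both scalings together it held 13, with 4 higher and 9 lower. The 9 lower unigenes had a median of 0.647 RPKM at bolting, against 17.2 RPKM at jointing, and the 4 higher ones had 301 RPKM, against 106 RPKM.

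Among the unigenes of this group without overlap between the phases and with 15 RPKM or more at the higher one, 2 are named in each direction for the size of their scaled difference. PB.1437.20 had 1051, 545 and 554 RPKM in bolting replicates 1 to 3, against 204, 255 and 150 RPKM in the jointing replicates. Every bolting library was above every jointing library. Its difference was 1.78 ± 0.24 (SE) as deposited (limma, adjusted p = 0.00995) and 2.12 ± 0.29 scaled (limma, adjusted p = 0.0145). It had 327.5 ± 13.6 RPKM in seedling leaves and 3049 ± 142 RPKM in florescence leaves (SD, n = 3 each), so of the 4 phases jointing was the lowest and florescence the highest.

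PB.38338.2 had 21.4, 35.4 and 38.6 RPKM at bolting, against 8.15, 9.78 and 8.27 RPKM at jointing. Here bolting replicate 1 was the lowest of the bolting libraries, not the highest. The difference was 1.71 ± 0.21 (SE) as deposited (limma, adjusted p = 0.00995) and 2.03 ± 0.21 scaled (limma, adjusted p = 0.00814). Seedling leaves had 15.5 ± 1.82 RPKM and florescence leaves 22.4 ± 4.39 RPKM (SD, n = 3 each).

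PB.54891.1 was nearly absent at bolting, with 0.07, 3.16 and 0 RPKM in replicates 1 to 3, against 46.0, 51.6 and 268 RPKM at jointing. Jointing replicate 3 was far above the other jointing libraries, and all 3 were above every bolting library. The difference was -5.73 ± 0.67 (SE) as deposited (limma, adjusted p = 0.00908) and -5.50 ± 0.66 scaled (limma, adjusted p = 0.0102). It was listed at 0 in all 3 florescence libraries and had 17.3 ± 7.34 RPKM in seedling leaves (SD, n = 3). Its florescence libraries thus gave the fit degrees of freedom without any spread.

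PB.58419.1 showed the same order of phases. It had 0.07, 1.67 and 0.13 RPKM at bolting, against 10.9, 11.3 and 26.8 RPKM at jointing, and jointing replicate 3 and bolting replicate 2 were again the highest of their phases. The difference was -3.43 ± 0.40 (SE) as deposited (limma, adjusted p = 0.00908) and -3.22 ± 0.38 scaled (limma, adjusted p = 0.0102). Seedling leaves had 2.68 ± 1.31 RPKM (SD, n = 3), and the florescence libraries were listed at 0.

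**Figure D4:**
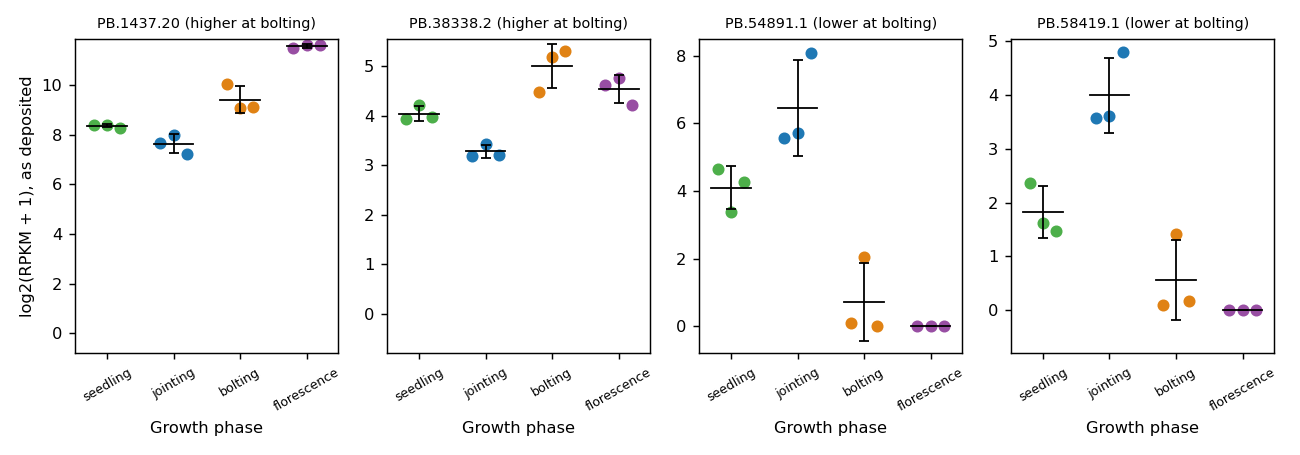
The 4 named unigenes in every library as log2(RPKM + 1), with points for libraries, horizontal bars for phase means and error bars for the SD (n = 3). PB.1437.20 and PB.38338.2 are higher at bolting than at jointing in every library, and PB.54891.1 and PB.58419.1 are lower at bolting and listed at 0 at florescence.

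Few unigenes were present at one of these phases and absent at the other. With presence set at 1 RPKM or more in all 3 libraries and absence at 0.1 RPKM or less in all 3, 0 unigenes were present at bolting only and 4 at jointing only. These 4 are named after their values were seen. PB.54776.1 was listed at 0 in all 3 bolting libraries, against 1.74, 2.29 and 2.27 RPKM at jointing, and it had 3.45, 1.83 and 2.73 RPKM in seedling leaves and 0 in all florescence libraries. It was the only one of the 4 that reached the mean of 1 RPKM needed for testing, and it was called lower at bolting (limma, difference -1.63 as deposited, adjusted p = 0.00713).

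The others were highest in jointing replicate 3. PB.61060.1 was listed at 0 in all bolting libraries, against 1.34, 1.34 and 6.39 RPKM at jointing. PB.37563.1 had 0, 0.02 and 0.02 RPKM at bolting, against 1.23, 1.45 and 6.79 RPKM at jointing. PB.9736.2 had 0, 0.01 and 0 RPKM at bolting, against 1.41, 1.02 and 4.03 RPKM at jointing. The number of reads behind these low values is unknown.

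The libraries of seedling and florescence leaves are in neither phase mean of the difference between bolting and jointing. They did enter the spread, the scaling factors and the filter behind the calls, so they are not independent of the selection. Their values show where the called unigenes stood at the other phases. The 209 unigenes called higher at bolting on scaled values had a median of 38.0 scaled RPKM in seedling leaves, 15.7 in jointing, 39.3 in bolting and 44.8 in florescence leaves, taken over phase means. For these unigenes jointing was thus the phase that stood apart, with all 3 of its libraries below the median level of each other library of the series. The 365 unigenes called lower had medians of 4.64, 12.01, 2.49 and 1.14 scaled RPKM in the same order of phases. For these, jointing was the highest phase and florescence the lowest.

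**Figure D5:**
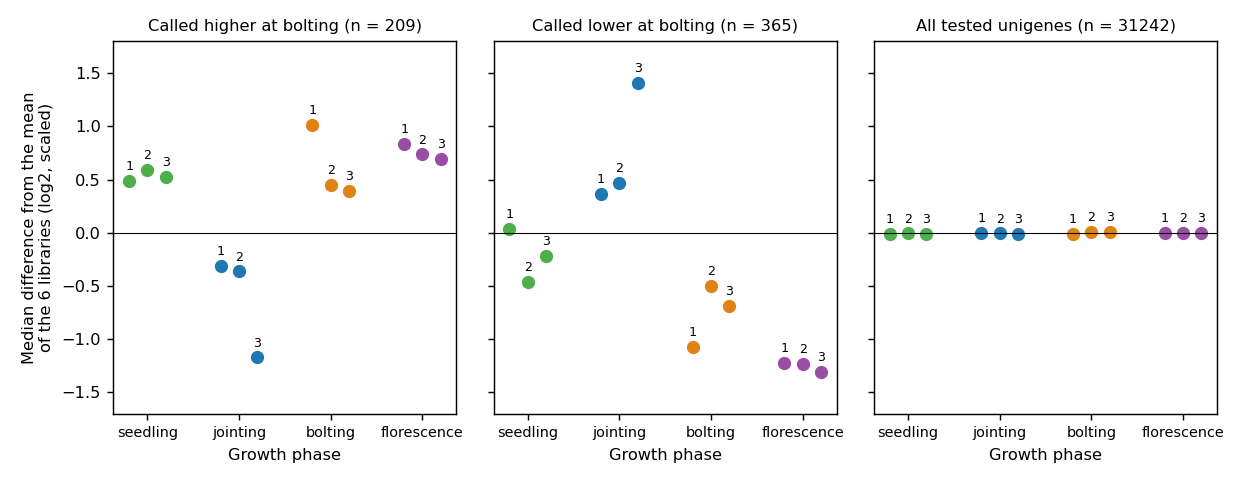
Median over the called unigenes (scaled values) and over all tested unigenes of the log2 difference from the mean of the 3 bolting and 3 jointing libraries, for each of the 12 libraries with its replicate number. Jointing replicates lie at -0.31, -0.36 and -1.17 for the unigenes called higher at bolting and at 0.36, 0.47 and 1.41 for those called lower, and all tested unigenes stay near 0.

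Florescence minus seedling shares no library with bolting minus jointing. On scaled values florescence was below seedling for 316 of the 365 unigenes called lower at bolting, with a median difference of -0.98, and above seedling for 49 (13.4%). Over all tested unigenes it was above for 51.0%, with a median of 0.01. Of the 209 unigenes called higher at bolting, florescence was above seedling for 118 (56.5%), close to the share over all tested unigenes, and the median difference was 0.09. All 9 lower unigenes of the group that passed in every fit in both scalings were lower in florescence than in seedling leaves, and all 4 higher ones were higher. These counts describe the direction only and were not tested.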

How the data were processed

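RNA of opium poppy leaves was sequenced with paired ends at 4 growth phases, with 3 libraries each. The deposited table holds RPKM, which the authors estimated with RSEM after mapping reads with HISAT2 (2.05) to unigenes from pooled long reads. RSEM divides reads between like sequences, so single unigenes with close relatives are uncertain, and a fall of abundant unigenes raises all others in RPKM. The labels do not say whether replicates are separate plants, and the methods of the study call them independent samples. Unigenes whose mean reached 1 RPKM were tested with limma 3.58.1 (R 4.3.3), using a trend of variance with level on log2(RPKM + 1) and Benjamini-Hochberg adjustment over all 31242, as deposited and after median-of-ratios scaling over the 30549 above 0 in every library. Differences on this scale understate changes of low values. The fit was tested on simulated data with independent noise of the same spread in every library. That test does not cover libraries that deviate as a whole. The count test of the study needs counts and was not used. Sums over unigenes that share the first number of the identifier were planned and could not be made, since all 61856 numbers differ. Unigenes were named by the rule given with their values. The members, lists and tests were chosen with earlier results of these data known. Pseudocounts, filters, thresholds, scalings, library weights, the replicate block and left-out libraries were varied.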

Additional observations from a re-analysis of the deposited data

How the results depend on the processing

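As deposited, the 1023 calls became 1764 with pseudocount 0.1, 511 with a minimum mean of 10 RPKM (fewer unigenes tested), 8326 without the fold threshold, 50 at an adjusted p under 0.01, 541 with array quality weights, 583 after quantile normalization, 641 on equal totals without the 100 most abundant unigenes, and 221 without both end libraries (chosen after the data were seen). On scaled values the 574 calls became 376 with a minimum of 10 RPKM (222 higher and 154 lower), 326 without a minimum, 2974 without the fold threshold (1721 higher and 1253 lower), 6 with 0.01 as the limit of the adjusted p, 310 with weights (72 higher and 238 lower) and 120 without both end libraries. With each of the 12 libraries left out in turn the counts ran from 179 (without bolting replicate 1) to 1497 (without jointing replicate 1) as deposited and from 20 to 951 on scaled values, with the same libraries at the ends, and they were 390 and 193 without jointing replicate 3. In the RNA integrity that the study lists, jointing replicate 3 was the highest of the 12 libraries, and bolting replicate 1 lay between the other bolting libraries. The cause was not tested.

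In fits on the 6 libraries the counts were 0 and 0 (limma), with 10775 and 6828 unigenes at an unadjusted p under 0.05. With the replicate number as a block they were 1029 and 609 on 12 libraries, and 0 and 0 on the 6 libraries, with 10522 and 6525 at an unadjusted p under 0.05. Same-numbered libraries did not deviate together from their phase means as deposited (correlations of 0.05, -0.63 and 0.08 across unigenes). Each library correlated better with a library of another number. Deviations from a mean of 3 libraries depend on each other, so what same-numbered libraries share beyond the number cannot be told from these correlations.

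The 4 named unigenes were called in 183 of the 202 alternative fits run for them, and their sign was fixed by the lack of overlap wherever only libraries were left out. The 19 exceptions were the fits on 6 libraries with and without the block (8 each) and the adjusted p under 0.01 (3). Part of the 183 was fixed beforehand. The naming rule demanded a call in each of the 6 fits that left out a bolting or jointing library, in both scalings. A call in the main fit also stays a call without the fold threshold. The count is therefore not a measure of how firm these calls are. Unigenes present at jointing only numbered 2 with 0 RPKM demanded at bolting, and with a library left out 5 to 16, where fewer libraries had to meet the demand (16 without bolting replicate 2), and those at bolting only 0 to 2. Differences in detected unigenes, top shares, scaling factors and sums kept their sign in every alternative. Where a library was left out the sign was fixed beforehand, since the phases did not overlap in any of these values. For scaling factors and sums no other kind of alternative was run. Low values carry a counting error that the table does not give.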
